A study of Mus musculus with 4 samples.

Results

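The BCL2 family outside the best known p53 targets was followed in RNA-seq of mouse embryonic stem cells (mESCs) whose CTCF, the insulator protein that anchors chromatin loops, either could or could not carry O-GlcNAc, a sugar added to serine and threonine, at T668. The members were 10 genes chosen by symbol, namely Bcl2, Bcl2l1, Mcl1, Bak1, Bok, Bad, Bid, Bik, Bcl2l11 and Bmf, and all 10 were found among the 37620 genes of the count table. Both lines derived from mESCs in which the endogenous CTCF carried an EGFP-AID tag, so that auxin degraded it, and both received a vector under hygromycin selection. The vector of WT_CTCF cells encoded wild-type CTCF, and that of MUT_CTCF cells encoded CTCF changed at T668. Each line was 1 picked clone whose exogenous CTCF was close to the endogenous level, and both were grown in serum with LIF on gelatin, with 2 libraries per line. The 2 libraries of a line are called biological replicates in the study, and no further independent clone was analysed here, so the clone and the mutation cannot be told apart.

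Proteins of the BCL2 family decide whether the outer mitochondrial membrane stays intact. Pro-survival members (BCL2, BCL-XL from Bcl2l1, and MCL1) hold effector proteins such as BAK in check, effectors form pores through which cytochrome c escapes to activate caspases, and BH3-only proteins (BAD, BID, BIK, BIM from Bcl2l11, and BMF) sense stress and bind the other members through their BH3 helix. Pluripotent cells are known for being easily driven into apoptosis. The question asked of the count table is whether any of these genes differed in RNA level between MUT_CTCF and WT_CTCF mESCs.

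The feature that joins the family is the BH3 core, a leucine followed by any 3 residues, a glycine, alanine or serine, and an aspartate. In the longest complete coding sequence of every member, this pattern was found exactly 1 time. Of 21463 mouse coding genes, 22.7% had exactly 1 match and 33.0% at least 1. The pattern was set to describe this family, so its presence in the members is a definition and not an enrichment. The 9 codons that begin at this leucine are shown because they are what the 3 classes share, read 5′ to 3′ on the coding strand from the NCBIM37 (mm9) genome, with the codons of the leucine and of the small residue and aspartate in capitals.
Bcl2: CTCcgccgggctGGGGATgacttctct
Bcl2l1: CTGagagaggcaGGCGATgagtttgaa
Mcl1: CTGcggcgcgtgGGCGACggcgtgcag
Bak1: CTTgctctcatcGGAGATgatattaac
Bok: CTGctgcgcttgGGAGATgagctggag
Bad: CTCcgaaggatgAGCGATgagtttgag
Bid: CTCgcccaaataGGCGATgagatggac
Bik: CTGgcctgcatcGGCGATgagatggac
Bcl2l11: CTGcggcggatcGGAGACgagttcaac
Bmf: CTTcagtgtattGCAGACcagttccat
The Bid core (chr6:120847307-120847333, minus strand) and the Bik core (chr15:83373514-83373540, plus strand) were the most alike, with 22 of 27 bases identical, and all other pairs shared between 10 and 19 bases. The Bmf core (chr2:118370836-118370862, minus strand) has an alanine codon and the Bad core (chr19:7025282-7025308, plus strand) a serine codon where the other 8 have glycine. The Bok core is split over exons 2 and 3 (chr1:95583234-95585747, plus strand), and that of each other member lies within a single exon.

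The libraries held from 40524694 to 40977464 counts, and a test was run on the 16264 genes that had enough counts for edgeR, among them all 10 members. Normalized counts are counts scaled by edgeR's TMM method to the mean library. Ctcf had 18485 ± 259 normalized counts in WT_CTCF and 19058 ± 378 in MUT_CTCF mESCs (SD, n = 2), which does not separate the endogenous from the exogenous transcript and so does not check the mutation. Pluripotency markers summed to between 2234 and 2248 RPKM, a level per length in which counts are divided by exon length and library total, in WT_CTCF and between 2242 and 2246 in MUT_CTCF libraries, and 1 of these 8 markers was higher at an adjusted p under 0.05. Markers of other cell types were uneven, and the highest was Tfap2c, a trophectoderm marker at a mean of 24.9 RPKM. The sums of the marker lists in WT_CTCF and MUT_CTCF libraries were 2.98 to 3.11 and 3.45 to 4.50 RPKM for 6 primitive endoderm genes, 49.9 to 53.1 and 48.3 to 48.4 for 6 trophectoderm genes, and 13.8 to 14.6 and 14.9 to 16.4 for 6 fibroblast genes. None of these 18 genes was at 0 in every library, 10 were under 1 RPKM, 2 trophectoderm markers were lower at an adjusted p under 0.05, and their part in the results was not tested.

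Among the 10 members, Mcl1 carried most of the RNA per length in these mESCs. Its level was 149.9 ± 0.742 RPKM in WT_CTCF and 150.7 ± 3.18 RPKM in MUT_CTCF mESCs (SD, n = 2), higher than 97.8% of the tested genes, and it made up 62.1% to 63.6% of the summed RPKM of the 10 members in every library. Bok followed with a mean of 26.1 RPKM over the 4 libraries, then Bak1 with 19.6, Bid with 19.0, Bcl2l1 with 12.4 and Bad with 5.65 RPKM. Bik, Bcl2l11 and Bmf lay lower, at 2.87, 2.46 and 1.75 RPKM. Bcl2, the founding member of the family, was close to silent, at 0.0444 ± 0.00486 RPKM in WT_CTCF and 0.0424 ± 0.0357 RPKM in MUT_CTCF mESCs (SD, n = 2), a level exceeded by all but 0.7% of the tested genes. Neighbours in this order did not overlap in any library, except Bak1 (18.5 to 20.9 RPKM) and Bid (17.6 to 20.3 RPKM), which cannot be ranked against each other. The middle of the order depended on the gene length used. So did the share of Mcl1, which was 56.3% to 57.8% with the longest transcript of each gene. With the longest transcript in place of all exons, the mean of Bid was 27.9, of Bok 26.1, of Bcl2l1 24.4 and of Bak1 19.7 RPKM, while Mcl1 stayed highest, Bad sixth, Bmf ninth and Bcl2 lowest.

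**Figure D1:**
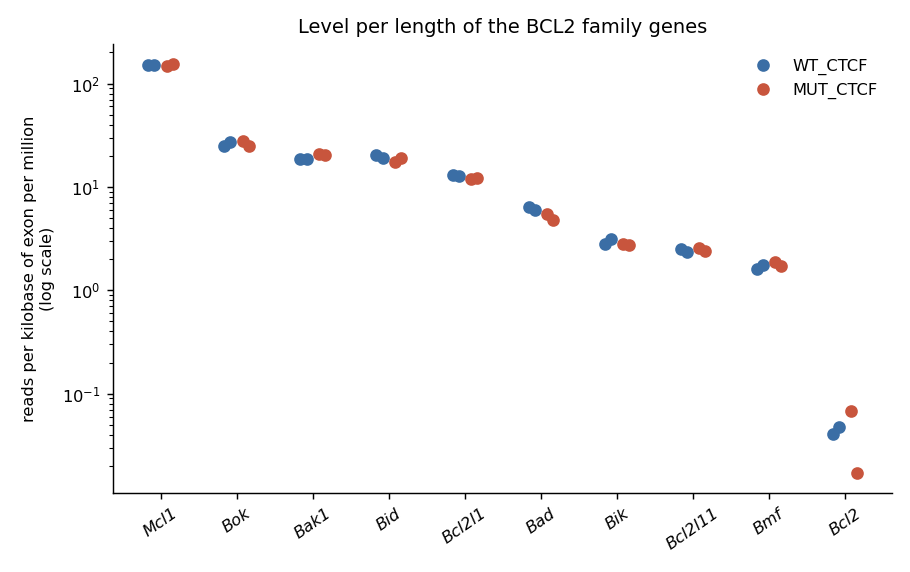
Level per length of the 10 members in each library, in RPKM on a log scale, with 2 points per line (blue, WT_CTCF and red, MUT_CTCF), ordered by the mean over the 4 libraries. Mcl1 lies at 148.5 to 153.0, the next gene Bok at 24.7 to 27.8, and Bcl2 at 0.0171 to 0.0676.

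No member passed the test between the lines. With the quasi-likelihood test of edgeR and Benjamini-Hochberg adjustment over 16264 genes, 0 of 10 members had an adjusted p under 0.05, against 3.17% of all tested genes. The exact test of edgeR called 0 as well, and DESeq2 called 0 but gave no adjusted p for Bcl2 and Bik. The criterion of the paper, a fold above 2 and p under 0.05 without adjustment, also called 0 of 10, against 1.3% of all tested genes (0.947% higher and 0.357% lower). Unadjusted p-values were under 0.05 for 3 members, Bak1, Bad and Bid, against 15.3% of all tested genes. Both MUT_CTCF libraries lay beyond both WT_CTCF libraries for 4 members, against 44.7% of all tested genes. Log2 fold changes of MUT_CTCF over WT_CTCF ran from -0.28 to 0.15, with 5 above and 5 below 0, a median of -0.029 (0.0034 over all tested genes) and a median size of 0.091 (0.11 over all tested genes). In bulk RNA, fewer cells that express a gene and less RNA per cell cannot be told apart.

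The precision of these values differed between the members. For 9 of 10 the 95% interval of the fold change lay inside a 1.5-fold change in either direction, against 64.7% of all tested genes, with Mcl1 the narrowest. Bcl2 was the exception, and its interval reached beyond 2-fold in both directions. These intervals are for each gene alone, without adjustment for the number of genes. They come from 2 libraries of 1 clone per line, so they do not cover variation between clones.

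**Figure D2:**
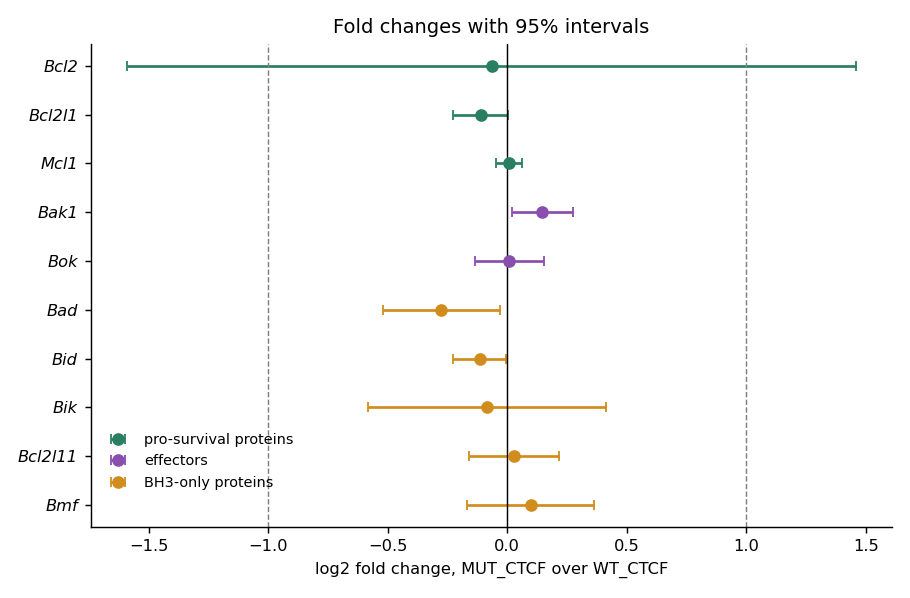
Log2 fold change of each member, MUT_CTCF over WT_CTCF (x axis), as a point with its 95% interval from edgeR's quasi-likelihood fit on 2 libraries per line; colours mark the class and dashed lines a 2-fold change. Values run from -0.28 for Bad to 0.15 for Bak1, with an interval of -1.6 to 1.5 for Bcl2 and of -0.048 to 0.063 for Mcl1.

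Among the pro-survival genes, Mcl1 was the most precisely measured and the closest to 0. Mcl1 (chr3:95462643-95467099, plus strand), which encodes a short-lived guard of BAK, had 21389 and 21240 normalized counts in the WT_CTCF and 21107 and 21746 in the MUT_CTCF libraries. The lines overlapped, with the highest and the lowest value both in MUT_CTCF. Its log2 fold change was 0.0076 (standard error, SE, 0.0275, 95% interval -0.048 to 0.063, adjusted p = 0.942), so the interval of the fold reached from 0.968 to 1.04. Bcl2l1 (chr2:152593052-152657464, minus strand) encodes BCL-XL and, by splicing, a shorter form with the opposite effect, which counts per gene do not separate. It had 2534 and 2453 normalized counts in WT_CTCF and 2277 and 2343 in MUT_CTCF mESCs. The lines did not overlap, with lower values in MUT_CTCF and a difference of the means of -7.35%. The test was not passed at a log2 fold change of -0.11 (SE 0.0578, 95% interval -0.23 to 0.0056, adjusted p = 0.365).

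Bcl2 (chr1:108434755-108610851, minus strand) was covered by 12 and 14 counts in WT_CTCF and by 20 and 5 counts in MUT_CTCF mESCs. The values of MUT_CTCF thus enclosed those of WT_CTCF, and its replicates were 1.98 apart on the log2 scale. The log2 fold change was -0.065 (SE 0.761, 95% interval -1.6 to 1.5, adjusted p = 0.980). Leaving out MUT_CTCF replicate 2 gave 0.60, leaving out WT_CTCF replicate 2 gave 0.05 and leaving out MUT_CTCF replicate 1 gave -1.4. A change of Bcl2 within the interval could thus not be told from no change.

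Of the effector genes, Bak1 stood at the top of the 10 fold changes. Bak1 (chr17:27156755-27165954, minus strand), whose product sits in the outer mitochondrial membrane and forms pores when freed, had 1832 and 1811 normalized counts in WT_CTCF and 2056 and 1978 in MUT_CTCF mESCs. The lines did not overlap, with higher values in MUT_CTCF and a mean 10.7% above that of WT_CTCF. Its log2 fold change was 0.15 (SE 0.0635, 95% interval 0.02 to 0.27, unadjusted p = 0.0241), which did not pass over all tested genes (adjusted p = 0.241), and 39.5% of the tested genes had a larger fold change in either direction. Of its exon bases, 14.8% are shared with Ggnbp1 on the opposite strand, whose log2 fold change was 0.022 (adjusted p = 0.969). Bok (chr1:95582271-95592339, plus strand), a BAK relative that pro-survival proteins restrain little, had 1461 and 1582 normalized counts in WT_CTCF and 1621 and 1441 in MUT_CTCF mESCs. The replicates of either line were farther apart than the 2 means, and the log2 fold change was 0.009 (SE 0.0724, 95% interval -0.14 to 0.15, adjusted p = 0.974).

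Among the BH3-only genes, Bad had the lowest fold change of all members. Bad (chr19:7016351-7026388, plus strand), whose product binds BCL2 and BCL-XL and is kept inactive by phosphorylation and 14-3-3 proteins, had 523.8 and 489.1 normalized counts in WT_CTCF and 447.1 and 389.9 in MUT_CTCF mESCs. The lines did not overlap, with lower values in MUT_CTCF and a difference of the means of -17.4%. The test was not passed at a log2 fold change of -0.28 (SE 0.122, 95% interval -0.52 to -0.03, unadjusted p = 0.0285, adjusted p = 0.262). Leaving out MUT_CTCF replicate 1 gave -0.38, and leaving out replicate 2 gave -0.18. Bad shares 25.8% of its exon bases with Gpr137 on the opposite strand, and whether counting used the strand is not given in the sources used here. Gpr137 had 569 and 527 counts in WT_CTCF and 643 and 646 in MUT_CTCF libraries. The log2 fold change of Gpr137 was 0.23 (SE 0.107, adjusted p = 0.296), opposite in sign to that of Bad, and its part in the value of Bad was not tested.

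Bid (chr6:120841948-120866871, minus strand), which links death receptors to mitochondria once caspase-8 cuts its product, had 2939 and 2777 normalized counts in WT_CTCF and 2545 and 2731 in MUT_CTCF mESCs. The MUT_CTCF values were the lower ones without overlap, though the nearest pair was only 0.024 apart on the log2 scale. The log2 fold change was -0.12 (SE 0.0556, 95% interval -0.23 to -0.004, unadjusted p = 0.0426), which did not pass (adjusted p = 0.312). It was -0.066 without MUT_CTCF replicate 1. Bid overlaps its neighbour Bcl2l13, another family gene on the opposite strand, over 17.7% of its exon bases, and the log2 fold change of Bcl2l13 was 0.011 (adjusted p = 0.953).

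The other 3 BH3-only genes overlapped between the lines. Bcl2l11 (chr2:127951774-127988283, plus strand), the gene of BIM, which binds every pro-survival member, had 818.3 and 773.8 normalized counts in WT_CTCF and 833.7 and 790.8 in MUT_CTCF mESCs. Replicate 1 was higher in both lines, and the log2 fold change was 0.029 (SE 0.0936, 95% interval -0.16 to 0.22, adjusted p = 0.933). Bmf (chr2:118354493-118375423, minus strand), whose product is held by the dynein light chain DYNLL2, had 344.5 and 377.9 normalized counts in WT_CTCF and 404.5 and 368.8 in MUT_CTCF mESCs. Its log2 fold change was 0.098 (SE 0.133, 95% interval -0.17 to 0.36, adjusted p = 0.811), and 0.029 without MUT_CTCF replicate 1. The Bmf transcript has a stretch of 337 bases with up to 98.2% identity elsewhere in the genome, so its count is less certain, and no other member has such a stretch of at least 100 bases at 95% identity or more. Bik (chr15:83357292-83375065, plus strand), whose product resides largely on the endoplasmic reticulum, had 107.2 and 120.3 normalized counts in WT_CTCF and 108.1 and 106.5 in MUT_CTCF mESCs. Its log2 fold change was -0.084 (SE 0.248, 95% interval -0.58 to 0.41, adjusted p = 0.926), so the interval of the fold reached from 0.669 to 1.33.

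**Figure D3:**
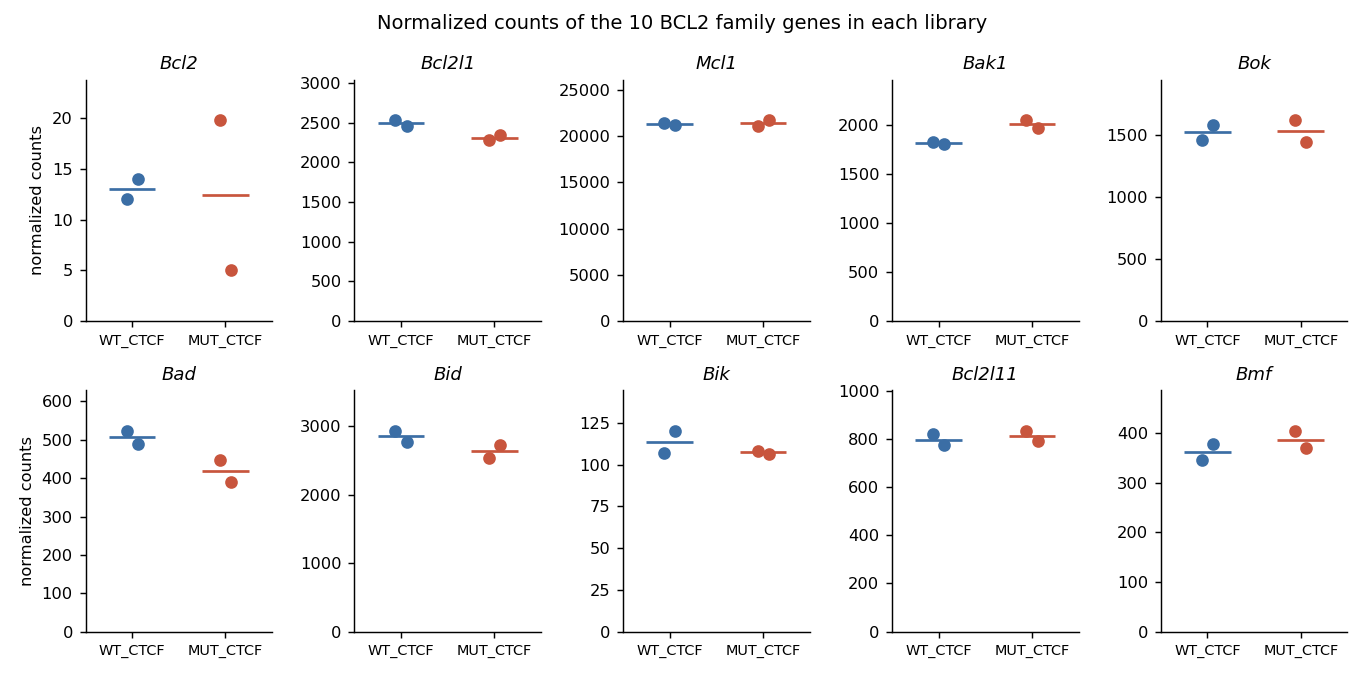
Normalized counts of each member (y axis from 0, scaled for each gene) in the 2 WT_CTCF (blue) and 2 MUT_CTCF (red) libraries, with a bar at the mean of each line. Only Bak1 has both MUT_CTCF points above, and Bcl2l1, Bad and Bid have both below, the WT_CTCF points; none of the 10 passed at an adjusted p under 0.05.

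The balance of the 3 classes among the 10 members was described by their summed RPKM in each library, without a test. The pro-survival genes summed to 163.6 and 162.2 RPKM in WT_CTCF and to 160.3 and 165.1 RPKM in MUT_CTCF libraries, which overlap. The effectors Bak1 and Bok summed to 43.7 and 45.5 RPKM in WT_CTCF and to 48.7 and 44.8 RPKM in MUT_CTCF libraries, which also overlap. The BH3-only genes summed to 33.6 and 32.4 RPKM in WT_CTCF and to 30.3 and 30.5 RPKM in MUT_CTCF libraries, lower in both MUT_CTCF libraries, and most of this sum is the RNA of Bid. Shares of the summed RPKM of the 10 members leave out Bax and the other family genes. Over the 4 libraries the pro-survival genes held 67.0% to 68.7%, the effectors 18.1% to 20.3% and the BH3-only genes 12.7% to 13.9%. With the longest transcript they held 65.3% to 66.8%, 16.4% to 18.6% and 16.1% to 17.7%, so effectors and BH3-only genes then overlapped. The RPKM ratio of Bcl2l1 to Bak1 was 0.703 and 0.689 in WT_CTCF and 0.563 and 0.602 in MUT_CTCF libraries, which do not overlap. That of Mcl1 to Bcl2l1 was 11.5 and 11.8 in WT_CTCF and 12.6 in each MUT_CTCF library. With the length of the longest transcript, the ratios of Bcl2l1 to Bak1 were 1.37 and 1.34 in WT_CTCF and 1.09 and 1.17 in MUT_CTCF libraries. Which gene is higher thus depends on the length. A change of length scales the ratio alike in every library, so it cannot alter the separation of the lines. Of 6 such ratios between members, 5 did not overlap between the lines. The ratio of Bcl2l1 to Bid overlapped (0.647 and 0.662 in WT_CTCF, 0.671 and 0.643 in MUT_CTCF libraries). Of single tested genes 44.7% did not overlap, but that is not a background for ratios, and the 6 ratios share members. These ratios were chosen after the values of the members were known, and with 2 libraries against 2 an exact permutation test cannot give a two-sided p below 0.333.

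Outside the members, 62 further genes of the pathway fell into 5 lists, of which 58 were tested. Of these, 3 were lower at an adjusted p under 0.05, against 1.61% of all tested genes (edgeR's quasi-likelihood test). By the same test 0 were higher, against 1.56%, and 8 had an unadjusted p under 0.05, against 15.3% of all tested genes. Among the 13 other BCL2 family genes, 9 were tested and 2 fell, and both are well known p53 targets. Bax, the effector that works beside BAK, had 12346 and 12338 normalized counts in WT_CTCF and 10838 and 11432 in MUT_CTCF mESCs. Both MUT_CTCF libraries lay lower, and on the log2 scale Bax fell by 0.15 (SE 0.0327, adjusted p = 0.00366). The value of Bak1 was 0.15 in the other direction but did not pass (adjusted p = 0.241). Bbc3, which encodes the BH3-only protein PUMA, had 1397 and 1402 normalized counts in WT_CTCF and 1175 and 1130 in MUT_CTCF mESCs, and on the log2 scale it fell by 0.28 (SE 0.0757, adjusted p = 0.0249). Pmaip1, the gene of NOXA and also a p53 target, was named after the values were seen. It had 489.8 and 618.4 normalized counts in WT_CTCF and 496.7 and 456.2 in MUT_CTCF mESCs. The lines overlapped, and its log2 fold change of -0.22 missed the threshold (adjusted p = 0.397). With no filter on counts Bax missed the threshold (adjusted p = 0.212), as did Bbc3 (0.226), which did not pass in DESeq2 either (adjusted p = 0.0587), and neither passed when any 1 library was left out (adjusted p from 0.054 to 0.365 for Bax and from 0.134 to 0.390 for Bbc3). At a mean of 214.9 RPKM over the 4 libraries, Bax was higher than Mcl1 on this scale. The 3 Bcl2a1 copies, Bcl2a1a, Bcl2a1b and Bcl2a1d, had 0 counts in all 4 libraries, which allows up to 3 counts per library, or at most 0.074 CPM (counts scaled to the library total), for counting error only. Only uniquely mapped reads were counted, so reads that fit several of these copies would be missing from their counts. How alike the copies are was not tested. Bcl2a1b shares 49.1% of its exon bases with Mthfs on the same strand, and how reads there were counted was not tested.

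Downstream of mitochondria, 0 of 11 tested genes of the apoptosome, caspases and nucleases passed (0 had an unadjusted p under 0.05), and their median log2 fold change was -0.011. Aifm1, which encodes a mitochondrial flavoprotein, had a log2 fold change of -0.064 (adjusted p = 0.632), which ran from -0.12 without MUT_CTCF replicate 1 to -0.014 without MUT_CTCF replicate 2. Of 8 tested caspase inhibitors and their antagonists, 1 fell. Birc6, a giant ubiquitin ligase of the inhibitor of apoptosis family, had 3195 and 3252 normalized counts in WT_CTCF and 2923 and 2777 in MUT_CTCF mESCs, and on the log2 scale it fell by 0.18 (SE 0.0525, adjusted p = 0.0445). Birc6 did not pass with library size only, without a filter, in DESeq2 or with any 1 library left out (adjusted p from 0.0818 to 0.447 over these fits). Of 8 tested death receptor genes, 0 passed (0 had an unadjusted p under 0.05), and the genes with the smallest p were 2 adaptors. Tradd had a log2 fold change of 0.13 (adjusted p = 0.513), which ran from 0.037 without WT_CTCF replicate 1 to 0.24 without WT_CTCF replicate 2. Fadd had a log2 fold change of -0.12 (adjusted p = 0.738), which ran from -0.23 without MUT_CTCF replicate 1 to -0.012 without MUT_CTCF replicate 2.

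Of 22 tested genes whose proteins bind or modify the members, 0 passed, and their median log2 fold change was -0.012. An unadjusted p under 0.05 was found for 5 of them, against 15.3% of all tested genes. Vdac1, a mitochondrial outer membrane channel, was at a log2 fold change of 0.076 (SE 0.0246, adjusted p = 0.0770), and passed with library size only (adjusted p = 0.0345) and with a replicate block (adjusted p = 0.039). It did not pass in the other 10 alternative fits (adjusted p from 0.0589 to 0.512), among them DESeq2 (0.102), the exact test of edgeR (0.224) and no filter (0.402), and its log2 fold change was 0.045 when MUT_CTCF replicate 1 was left out. Akt1, a kinase that phosphorylates BAD, had 865.4 and 846.0 normalized counts in WT_CTCF and 1004 and 1053 in MUT_CTCF mESCs, and its log2 fold change of 0.27 missed the threshold (SE 0.087, adjusted p = 0.0824).

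**Figure D4:**
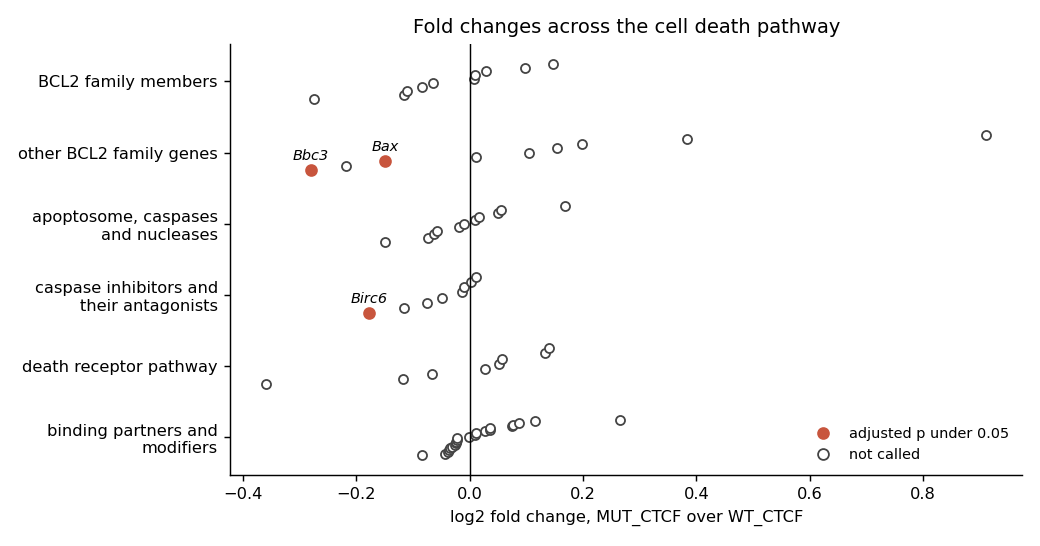
Log2 fold change of MUT_CTCF over WT_CTCF (x axis) for the members and the genes of 5 pathway lists, 1 circle per tested gene, filled where the adjusted p was under 0.05. The only filled circles are Bax (-0.15), Bbc3 (-0.28) and Birc6 (-0.18), and the farthest value to the right is 0.91, of Bcl2l10, which had between 5 and 11 counts per library (adjusted p = 0.703).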

How the data were processed

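The 4 RNA-seq libraries, 2 per line, were grouped by their labels. Reads were trimmed with Trim Galore 0.4.4, aligned to mm9 with STAR, and uniquely mapped reads were counted per gene with HTSeq-count 0.9.1; the authors deposited these raw counts without normalization. A deposited table of the authors' own edgeR comparison (fold changes, average expression, p-values) was not used. The annotation release and strand of counting are not given in the sources used here.

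Symbols, places and exon lengths came from GENCODE M1 (NCBIM37, the same build as mm9), which named 37205 of 37620 identifiers. Genes were kept by filterByExpr with a minimum of 10 counts (99.96% of the counts), scaled by TMM, and tested with edgeR 4.0.16 (R 4.3.3) by glmQLFit and glmQLFTest on condition alone, with Benjamini-Hochberg adjustment. Standard errors were taken as the log2 fold change divided by the root of F. RPKM used the union of exons and TMM-scaled library sizes. BH3 cores were found by translating each gene's longest complete coding sequence, and near copies with blastn 2.17.0.

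Alternatives were DESeq2 1.42.0, its size factors, library size only, 2 other filters, edgeR's exact test, robust empirical Bayes, a replicate block, each library left out, and another gene length. Named genes are all members, the called genes of each list or, where there were none, the 2 with the smallest p, and Ctcf, except that 1 gene the rule names is not reported here; other names were added after values were seen. The members and lists were chosen with earlier results of these data known. Replicates differed by more than counting error (chi-square per degree of freedom 3.25 and 3.77).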

Additional observations from a re-analysis of the deposited data

How the results depend on the processing

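In 12 alternative fits no member passed at an adjusted p under 0.05, and the counts of members called were 0 throughout, including at the paper's criterion. Bcl2 could not be tested with at least 10 reads in every library, and DESeq2 gave no adjusted p for Bcl2 and Bik. Signs of fold changes that did not pass turned when 1 library was left out, as ranges over the 4 left-out libraries of -1.4 to 0.60 for Bcl2, -0.016 to 0.029 for Mcl1, -0.079 to 0.090 for Bok, -0.16 to 0.0016 for Bik and -0.011 to 0.070 for Bcl2l11. The single values were 0.05 (Bcl2) without WT_CTCF replicate 2, 0.60 (Bcl2) and -0.016 (Mcl1) without MUT_CTCF replicate 2, -0.047 (Bok) without WT_CTCF replicate 1, -0.079 (Bok) and -0.01 (Bcl2l11) without MUT_CTCF replicate 1, and 0.0016 (Bik) and -0.011 (Bcl2l11) without WT_CTCF replicate 2. Here 1 line has a lone library, assumed to vary like the other line. Over all tested genes, 515 were called, against 29 without a filter, 302 with DESeq2, 212 at the paper's criterion and between 6 (without either MUT_CTCF library) and 244 with a library left out. Among other BCL2 family genes, 2 were called, against 0 without a filter, 1 with DESeq2 and 0 with any library left out. Among caspase inhibitors 1 was called, against 0 with library size only, without a filter, with DESeq2 and with any library left out. Among binding partners 0 were called, against 1 with library size only and with the replicate block. The cause was not tested. Same-numbered replicates did not deviate together across all tested genes (correlation -0.0057), which cannot show whether some genes shared a batch. The replicate block called 698 of all tested genes, against 515, and changed no other call of a named gene. With the longest transcript, the order by level was 3 for Bok, 5 for Bak1, 2 for Bid, 4 for Bcl2l1, 8 for Bik and 7 for Bcl2l11; without MUT_CTCF replicate 1, Bak1 was 4 and Bid 3, and these ranged from 3 to 4 over the left-out libraries.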
